A study of Mus musculus with 8 samples.

Results

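The nuclear genes for subunits of respiratory chain complexes I to IV were followed across diet and feeding time in cells grown from mouse fat. The list held 50 genes, and a gene was represented by the probe whose transcript accession maps to its symbol, taking the probe with the highest mean log2 intensity where several did. A probe was found for 49 of the 50 genes, of 29585 genes or unnamed features tested on the array: 29 of complex I, 4 of complex II, 7 of complex III and 9 of complex IV. Cox5b was not analysed here, and neither were the subunits encoded in mitochondrial DNA. The scanner software flagged all 49 measured genes as well above background on all 8 arrays, so none was lost to the filter on dim probes.

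The respiratory chain of the inner mitochondrial membrane carries electrons from NADH (complex I, NADH dehydrogenase) and from succinate (complex II, succinate dehydrogenase) through coenzyme Q to complex III, the cytochrome bc1 complex. Cytochrome c then passes them to complex IV, cytochrome c oxidase, which reduces oxygen, and the protons pumped along the way drive ATP synthase. In fat, mitochondrial content increases as precursor cells become adipocytes, and the coactivator PGC-1 alpha together with the transcription factors NRF1, GABP and ERR alpha is known to drive transcription of many nuclear subunit genes.

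C57BL/6 male mice entered the study at 6 weeks of age and ate either chow or a diet with 60% fat for 12 or 24 weeks. The cells came from abdominal subcutaneous fat by collagenase digestion, adhered to plastic and were passaged, and the labels call them mesenchymal stem cells. Total RNA, labelled with Cy3, was hybridised to Agilent 8x60K mouse arrays, 2 in each of 4 groups: high-fat diet for 24 weeks (HF24), chow for 24 weeks (C24), high-fat diet for 12 weeks (HF12) and chow for 12 weeks (C12). Whether the arrays of a group stem from different animals or cultures is not given by the labels, so p-values reflect array-to-array spread alone, and that spread may be technical.

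Between 57.5% and 67.2% of probes were well above background on an array, and no spot was saturated. The 24-week arrays lay in row 2 of the slide and the 12-week arrays in row 1, while the high-fat arrays filled columns 3 and 4 and the chow arrays columns 1 and 2. All mice started at the same age, so those fed longer were also older. Feeding time, age of the mice and slide row cannot be told apart, nor can diet and slide column. The number of arrays limits the precision. All 11 measured stromal markers were well above background on all 8 arrays, with summed levels of 1265 and 1306 in HF24, 1248 and 1273 in C24, 1111 and 1161 in HF12 and 1095 on both C12 arrays, in units of the array's 75th percentile of intensity. Single stromal markers were less level than these sums. For C24 minus C12, 1 of 11 was lower and 5 were higher, against 22.2% and 23.9% of all genes tested. For HF12 minus C12, 4 were lower and 2 higher, against 17.4% and 13.6%. Nt5e, which encodes CD73, changed by −2.51 ± 0.09 for C24 minus C12 and −3.30 ± 0.09 for HF12 minus C12 (limma adjusted p = 1.76e-05 and 4.89e-06), and Cd34 by −1.40 ± 0.11 for HF12 minus C12 (limma adjusted p = 0.000334). Levels below are log2 of the intensity minus that percentile on the log2 scale, and can be set against each other only within a gene. In bulk samples, fewer cells of a type and less RNA per cell cannot be told apart.

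The subunit genes had their highest levels in the C12 cells. The C12 mean was the highest of the 4 group means for 48 of 49 genes, a pattern found in 31.4% of all genes tested; the exception was Ndufs6, a complex I accessory subunit, with means of 6.04 in HF24 and 6.02 in C12. Both C12 arrays lay above all 6 other arrays for 46 genes, against 20.7% of all genes tested, and Ndufa3, Ndufa7 and Ndufs6 were the exceptions. The lowest mean was in C24 for 40 genes, against 21% of all genes tested. It was in HF12 for 5 genes (Ndufb6, Ndufs1, Ndufs4, Sdha and Cox6a1) and in HF24 for 4 genes (Ndufa1, Ndufa13, Ndufb5 and Sdhc).

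Replicate arrays of a group were close for these genes. The median difference between both arrays of a group was 0.04 in HF24, 0.05 in C24, 0.10 in HF12 and 0.07 in C12 on the log2 scale. HF12 replicate 2 lay above HF12 replicate 1 for all but 5 of the 49 genes, so the HF12 arrays differed mostly in 1 direction. The median deviation of the 49 genes from their own 8-array means was −0.03 on both HF24 arrays, −0.14 and −0.19 on the C24 arrays, −0.08 and 0.01 on the HF12 arrays and 0.24 and 0.25 on the C12 arrays.

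**Figure D1:**
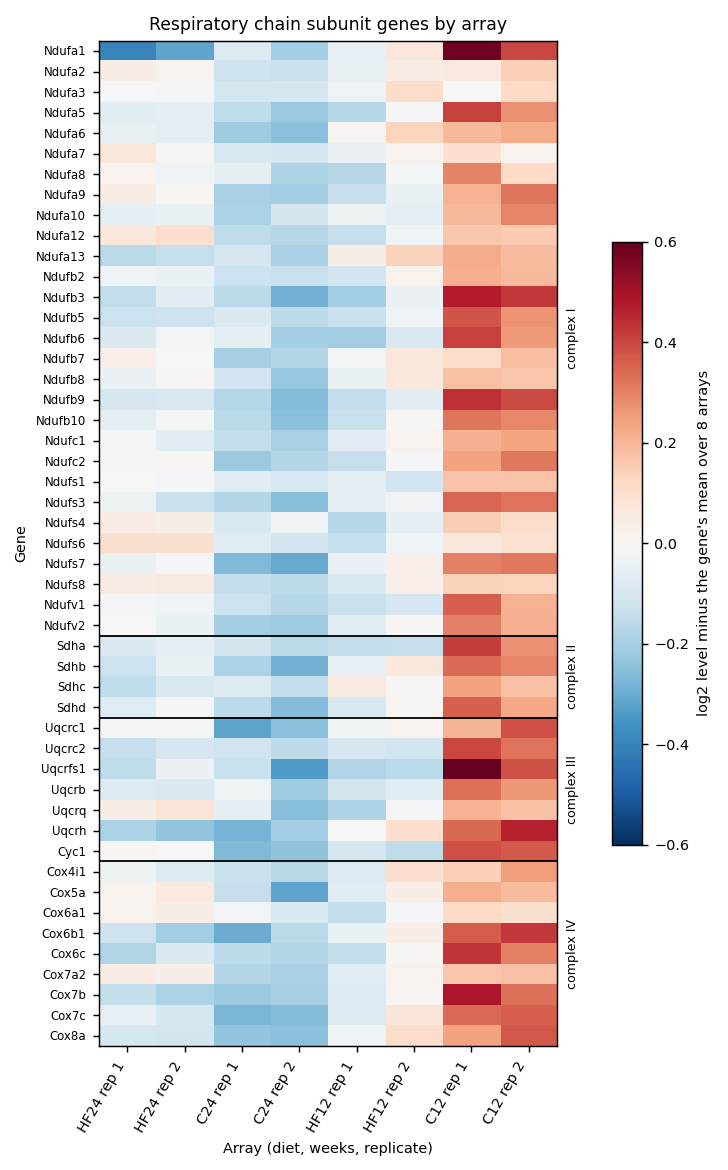
Each row is a subunit gene, each column an array, and the colour is the gene's log2 level minus its mean over the 8 arrays (red above, blue below). Both C12 columns lie above the mean in all 49 rows, and the 2 C24 columns lie below the mean in all 49.

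The comparison of 24 with 12 weeks on chow asks how subunit transcripts differ with longer feeding, and so with older mice, when the diet is the same. On chow they were lower after 24 weeks in every complex. Of 49 genes 44 were lower in C24 and 0 higher, by limma with Benjamini-Hochberg adjustment at 0.05 over all genes tested, while 22.2% of all genes tested were called lower and 23.9% higher. The median change was −0.45 on the log2 scale (0.734 of the C12 level), against 0.02 over all genes. The 2 arrays of C24 lay below those of C12 for all 49 genes, a separation seen in 35.1% of all genes tested, and changes ran from −0.74 to −0.16.

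By complex, the count of lower genes in C24 was 25 of 29 with a median of −0.40 in complex I, 4 of 4 with a median of −0.49 in complex II, 7 of 7 with a median of −0.58 in complex III and 8 of 9 with a median of −0.53 in complex IV. Genes that did not pass were Ndufa3 (−0.16, adjusted p = 0.114 by limma), Ndufa7 (−0.16, adjusted p = 0.0725), Ndufs4 (−0.18, adjusted p = 0.0624) and Ndufs6 (−0.17, adjusted p = 0.0622) of complex I and Cox6a1 (−0.16, adjusted p = 0.0995) of complex IV. No subunit gene changed 2-fold in any comparison. Without 1 array at a time, 38 to 44 genes were called lower, and 38 of the 44 calls held under every alternative tried.

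Diet was compared at 12 weeks to ask whether subunit transcripts differ between HF12 and C12 cells. They were lower on the high-fat diet, with a median closer to 0 than for feeding time on chow. Here 34 of 49 genes were lower in HF12 and 0 higher, while 17.4% of all genes tested were called lower and 13.6% higher. The median was −0.30 (0.812 of the C12 level), against −0.03 over all genes, and all 49 changes lay below 0, between −0.67 and −0.01. Complex I had 19 of 29 genes lower (median −0.29), complex II 3 of 4 (−0.32), complex III 6 of 7 (−0.39) and complex IV 6 of 9 (−0.26).

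This comparison and the one of 24 with 12 weeks on chow share the C12 arrays, so their directions are not independent of each other. The arrays of HF12 lay below those of C12 without overlap for 47 genes, against 38.3% of all genes tested. The count depended on single arrays: 10 genes were called without HF12 replicate 1 and 18 without C12 replicate 1, and it was 22 when only these 4 arrays entered the fit. Calls that held under every alternative followed for single genes numbered 9: Ndufb3, Ndufb9, Ndufs3, Ndufv1, Sdha, Uqcrc2, Uqcrfs1, Cyc1 and Cox7b. A fit on every kept probe was not among these alternatives. In that fit a second probe did not pass for Ndufv1 (limma adjusted p = 0.0709) or Sdha (adjusted p = 0.132).

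**Figure D2:**
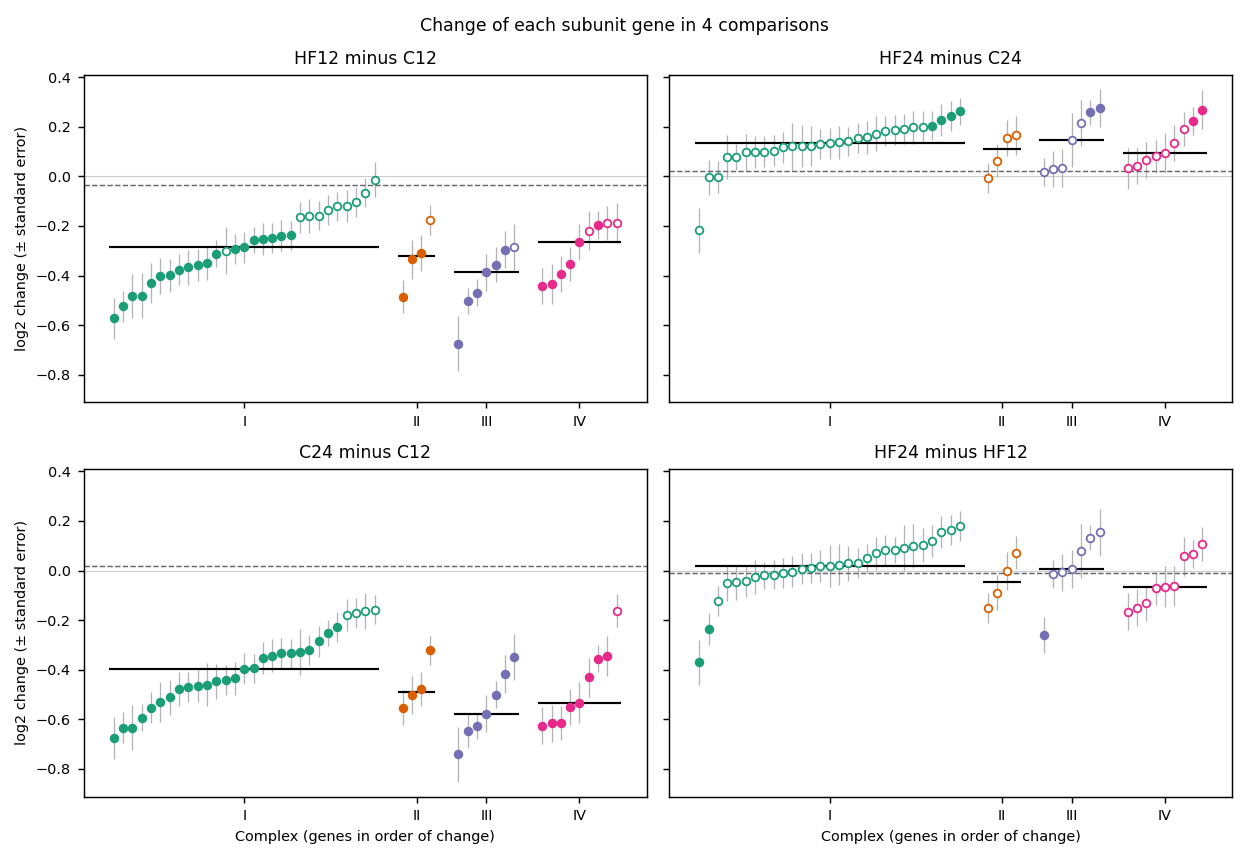
Log2 change of each of the 49 genes with its standard error in 4 comparisons, ordered within complexes I to IV, with filled points where limma's adjusted p was under 0.05, a black line at the complex's median and a dashed line at the median of all genes tested. All points lie below 0 for HF12 minus C12 and for C24 minus C12, and 45 of 49 lie above 0 for HF24 minus C24.

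Complex I takes its electrons through a core of nuclear-encoded subunits, most of which bind flavin or iron-sulfur clusters. Of these core genes Ndufs1, Ndufs3, Ndufs7, Ndufs8, Ndufv1 and Ndufv2 were measured, and all 6 were lower in C24 than in C12. Ndufs7, whose protein carries the iron-sulfur cluster next to coenzyme Q, had levels of 4.85 and 4.88 in HF24, 4.62 and 4.59 in C24, 4.85 and 4.92 in HF12 and 5.19 and 5.20 in C12. The groups other than HF24 and HF12 did not overlap for this gene, with C12 highest and C24 lowest. Its change was −0.59 ± 0.05 (standard error, n = 2 arrays per group) for C24 minus C12, −0.31 ± 0.05 for HF12 minus C12 and 0.26 ± 0.05 for HF24 minus C24 (limma adjusted p = 0.000456, 0.00831 and 0.0144).

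Ndufv1, which binds NADH and the flavin, had levels of 4.95 and 4.94 in HF24, 4.83 and 4.78 in C24, 4.82 and 4.86 in HF12 and 5.31 and 5.17 in C12. C12 stood above the other groups, and C24 and HF12 overlapped. The change was −0.43 ± 0.07 for C24 minus C12 (limma adjusted p = 0.00337) and −0.40 ± 0.07 for HF12 minus C12 (adjusted p = 0.00729). Ndufs3, another core subunit, had levels of 4.98 and 4.87 in HF24, 4.83 and 4.75 in C24, 4.95 and 4.99 in HF12 and 5.36 and 5.34 in C12. Its C12 arrays were again the highest, and its change was −0.55 ± 0.06 for C24 minus C12 and −0.38 ± 0.06 for HF12 minus C12 (limma adjusted p = 0.00105 and 0.00725). The large core subunit gene Ndufs1 changed less, by −0.25 ± 0.05 in both comparisons (adjusted p = 0.0103 for C24 minus C12 and adjusted p = 0.0149 for HF12 minus C12).

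Accessory subunits of complex I surround this core. Ndufb3, of the membrane arm, had levels of 4.38 and 4.46 in HF24, 4.36 and 4.23 in C24, 4.31 and 4.49 in HF12 and 5.00 and 4.95 in C12. C12 stood apart, and HF12 overlapped both HF24 and C24. The changes of −0.68 ± 0.08 for C24 minus C12 and −0.57 ± 0.08 for HF12 minus C12 (limma adjusted p = 0.00146 and 0.00433) were the largest falls in complex I. Ndufa3, another accessory subunit of the membrane arm, had levels of 5.89 and 5.89 in HF24, 5.79 and 5.79 in C24, 5.87 and 6.00 in HF12 and 5.89 and 6.01 in C12. Its HF12 and C12 arrays overlapped, with a change of −0.01 ± 0.07 (adjusted p = 0.904).

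Ndufa1, an X-linked accessory subunit needed to assemble the complex, followed another order. Its levels were 5.33 and 5.41 in HF24, 5.65 and 5.52 in C24, 5.68 and 5.80 in HF12 and 6.31 and 6.13 in C12. The groups did not overlap, and HF24 was lowest. The change was −0.63 ± 0.09 for C24 minus C12, −0.48 ± 0.09 for HF12 minus C12 and −0.37 ± 0.09 for HF24 minus HF12 (limma adjusted p = 0.00246, 0.0109 and 0.0188). For HF24 minus C24 it was −0.22 ± 0.09 (adjusted p = 0.118), the lowest value of the 49 genes in that comparison.

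Complex II, which also works in the citric acid cycle, was lower in C24 for each of its 4 genes. Sdha, the flavin-binding subunit that oxidises succinate, had levels of 4.21 and 4.24 in HF24, 4.18 and 4.14 in C24, 4.15 and 4.16 in HF12 and 4.71 and 4.57 in C12. C12 lay above all other arrays, which stayed within a narrow band. Its change was −0.48 ± 0.07 for C24 minus C12 and −0.49 ± 0.07 for HF12 minus C12 (limma adjusted p = 0.00223 and 0.00323). Sdhb, the iron-sulfur subunit, changed by −0.55 ± 0.07 and −0.31 ± 0.07 in these comparisons (adjusted p = 0.00166 and 0.0224), and Sdhd, a membrane anchor, by −0.50 ± 0.08 and −0.33 ± 0.08 (adjusted p = 0.0033 and 0.0224). The other anchor, Sdhc, was lower in C24 than in C12 (−0.32 ± 0.06, adjusted p = 0.00671) but did not pass for HF12 minus C12 (−0.18 ± 0.06, adjusted p = 0.0729).

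Complex III, with all 7 genes lower in C24 than in C12, had the lowest median of the 4 complexes for C24 minus C12 and for HF12 minus C12 (−0.58 and −0.39). Uqcrfs1, the Rieske iron-sulfur protein, had levels of 4.20 and 4.32 in HF24, 4.22 and 4.01 in C24, 4.17 and 4.19 in HF12 and 4.97 and 4.74 in C12. C12 was above the rest, and C24 overlapped both high-fat groups. Its change of −0.74 ± 0.11 for C24 minus C12 (0.598 of the C12 level, limma adjusted p = 0.00277) was the largest of all 49 genes, and for HF12 minus C12 it was −0.67 ± 0.11 (adjusted p = 0.00632).

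Cyc1, the cytochrome c1 subunit that hands electrons to cytochrome c, had levels of 4.67 and 4.65 in HF24, 4.39 and 4.41 in C24, 4.55 and 4.50 in HF12 and 5.04 and 5.02 in C12. No groups overlapped, in the order C24, HF12, HF24 and C12 from low to high. The change was −0.63 ± 0.05 for C24 minus C12, −0.50 ± 0.05 for HF12 minus C12 and 0.26 ± 0.05 for HF24 minus C24 (limma adjusted p = 0.000294, 0.00101 and 0.0127). Among the core proteins of the complex, Uqcrc2 changed by −0.50 ± 0.06 for C24 minus C12 and −0.47 ± 0.06 for HF12 minus C12 (adjusted p = 0.000939 and 0.00184), and Uqcrc1 by −0.58 ± 0.08 and −0.30 ± 0.08 (adjusted p = 0.00179 and 0.0318). The small subunit Uqcrq did not pass for HF12 minus C12 (−0.29 ± 0.09, adjusted p = 0.0646).

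Complex IV genes encode the nuclear subunits around the catalytic core, which mitochondrial DNA encodes. Cox7c had levels of 5.08 and 5.02 in HF24, 4.86 and 4.87 in C24, 5.05 and 5.20 in HF12 and 5.47 and 5.49 in C12. C12 was highest, C24 lowest, and HF24 and HF12 overlapped. The change was −0.61 ± 0.07 for C24 minus C12 and −0.35 ± 0.07 for HF12 minus C12 (limma adjusted p = 0.000937 and 0.0121). Cox7b and Cox6b1 changed by −0.62 ± 0.07 and −0.63 ± 0.07 for C24 minus C12 (adjusted p = 0.00121 and 0.00114). Cox4i1, the ubiquitous form of the regulatory subunit 4, changed by −0.35 ± 0.08 for C24 minus C12 (adjusted p = 0.0155) and by −0.19 ± 0.08 for HF12 minus C12 (adjusted p = 0.134).

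**Figure D3:**
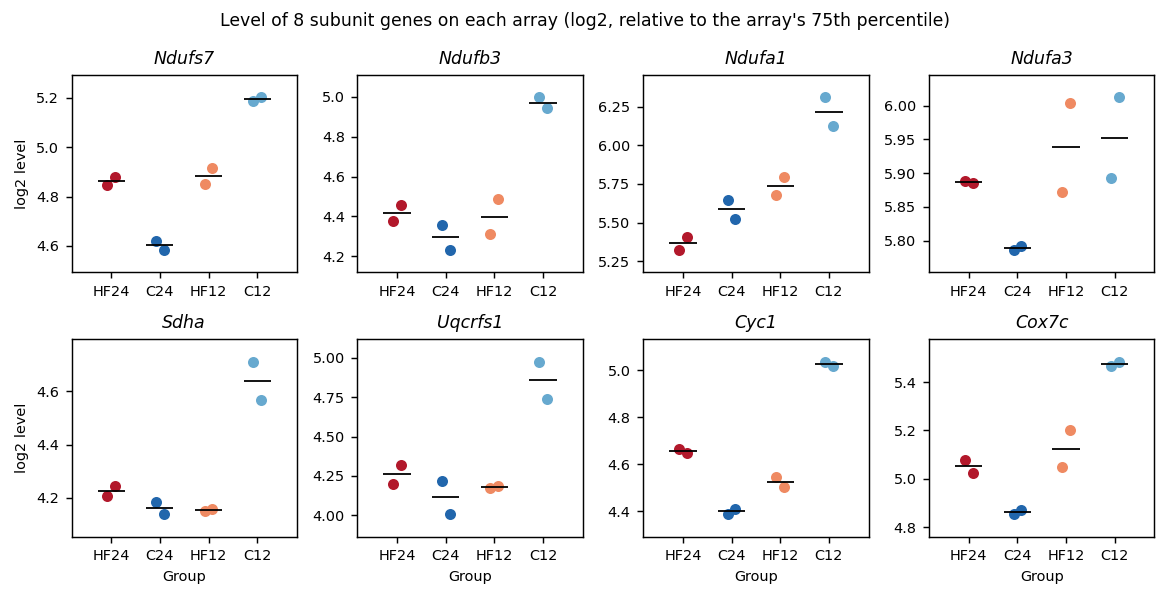
Log2 level of 8 subunit genes on each array relative to the array's 75th percentile, with a point per array and a line at the mean of each group, each panel with its own axis. C12 is the highest group in all 8 panels, while its arrays overlap those of HF12 for Ndufa3 and stand apart for the other 7 genes.

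Diet was compared again at 24 weeks, between HF24 and C24 cells. Changes were small and mostly above 0. Of 49 genes 8 were higher in HF24 and 0 lower, a share close to the 15.1% of all genes tested that were called higher (19% were called lower). The genes were Ndufa9, Ndufa12, Ndufb7 and Ndufs7 of complex I, Uqcrc1 and Cyc1 of complex III and Cox5a and Cox7a2 of complex IV, with changes between 0.20 and 0.27. The median was 0.13, against 0.02 over all genes, and 45 of 49 changes lay above 0.

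Counts depended on the scaling. The authors' table gave 9 higher genes with a median of 0.14. Under quantile normalization 3 genes were higher (Ndufs7, Cyc1 and Cox7a2) and 1 was lower (Ndufa1), with a median of 0.05 and 37 of 49 changes above 0, and 0 calls held under every alternative. Leaving out an array gave 0 without HF24 replicate 1 or HF24 replicate 2, 1 without C24 replicate 1 or C24 replicate 2 and 5 without HF12 replicate 1 or HF12 replicate 2. Uqcrc1 had levels of 4.44 and 4.44 in HF24, 4.13 and 4.20 in C24, 4.42 and 4.47 in HF12 and 4.65 and 4.83 in C12. For this gene the HF24 arrays lay above those of C24 and within the range of HF12 (HF24 minus C24 0.27 ± 0.08, limma adjusted p = 0.0375).

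The comparison of 24 with 12 weeks on the high-fat diet asks how the longer feeding differs on that diet. Few subunit genes differed: 3 of 49 were lower in HF24 and 0 higher, while 24.4% of all genes tested were called lower and 22.5% higher, and the median was 0.01. The lower genes were Ndufa1, Ndufa13 (−0.24 ± 0.07, limma adjusted p = 0.0283), an accessory subunit also known as GRIM-19, and Uqcrh (−0.26 ± 0.07, adjusted p = 0.0277), the hinge subunit of complex III. Here scaling mattered: quantile normalization gave 18 lower genes with a median of −0.14 and 46 of 49 changes below 0, while 22.1% of all genes were called lower with that scaling. Leaving out HF12 replicate 2 or HF24 replicate 1 gave 0 calls and leaving out HF24 replicate 2 gave 1.

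The difference between the diet effects was tested as an interaction, HF24 minus C24 less HF12 minus C12. It equals HF24 minus HF12 less C24 minus C12, so it shares the C12 arrays and is not independent of those comparisons. Their medians over the subunit genes were 0.01 and −0.45. The interaction was above 0 for all 49 genes and passed for 39, while 13.9% of all genes tested were called above 0 and 16% below. The median was 0.46, against −0.01 over all genes. The count was 22 of 29 in complex I, 3 of 4 in complex II, 7 of 7 in complex III and 7 of 9 in complex IV. Of these calls, 17 held under every alternative followed for single genes, which left out the fit on every kept probe. In that fit a second probe did not pass for 3 of the 17, Ndufv1 (limma adjusted p = 0.061), Sdha (adjusted p = 0.109) and Cox7c (adjusted p = 0.0503). The largest value was that of Uqcrfs1 (0.82 ± 0.16, limma adjusted p = 0.0114), followed by Cyc1 (0.76 ± 0.07, adjusted p = 0.00103) and Ndufb3 (0.69 ± 0.12, adjusted p = 0.0082). The 10 genes that did not pass were Ndufa1, Ndufa2, Ndufa3, Ndufa7, Ndufa8, Ndufa13, Ndufb8, Sdhc, Cox4i1 and Cox6a1. The count depended on the arrays, with 19 without HF12 replicate 1, 20 without C24 replicate 2, 21 without HF24 replicate 1 or HF24 replicate 2, and 25 without C24 replicate 1 or C12 replicate 2.

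A second probe was kept for 9 of the 49 genes: Ndufa3, Ndufa5, Ndufa10, Ndufb5, Ndufv1, Sdha, Sdhb, Uqcrb and Cox7c. Its change had the same sign as that of the brighter probe for 9 of 9 genes for C24 minus C12 and for HF12 minus C12, 8 of 9 for HF24 minus C24 and 7 of 9 for HF24 minus HF12. The probes disagreed most for Sdha, for which the second probe gave −0.17 for HF12 minus C12 (limma adjusted p = 0.132), against −0.49 for the brighter one. For Ndufa3 the second probe passed for C24 minus C12 (−0.33, adjusted p = 0.0197), where the brighter one gave −0.16.

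Because the genes moved together, their promoters were read for 4 motifs of factors known to act on respiratory chain genes. RefSeq promoters of the assembly GRCm38.p6, from 250 bases before to 50 after the gene's start, were matched by symbol for 39 of the 49 genes and held for 27025 genes in all. On either strand, the NRF1 motif, GCGCA and GCGC with any 1 base between them, stood in 8 of 39 promoters (20.5%), against 5.19% of all promoters. The ETS motif CCGGAAG, the kind that GABP binds, stood in 10 (25.6%), against 9.93%. The YY1 motif AAGATGGC stood in 7 (17.9%), against 3.19%, and the ERR motif TCAAGGTCA in 1 (2.56%), against 0.466%. At least 1 of these 4 motifs stood in 22 of 39 promoters (56.4%), against 16.8% of all promoters. ETS and YY1 matches can share the letters AAG, and no promoter of the 39 held both. A match describes letters only and shows no binding.

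A set of 4 promoters is shown because between them they hold each motif and belong to genes described above from complexes I, II and III. They are Ndufs3 at chr2:90904672-90904971 on the minus strand with the ETS motif on both strands, Ndufs7 at chr10:80249199-80249498 on the plus strand with the YY1 motif, Sdhd at chr9:50603800-50604099 on the minus strand with the NRF1, ETS and ERR motifs, and Uqcrc1 at chr9:108936398-108936697 on the plus strand with the NRF1 motif at 2 places. Sequences run 5′ to 3′ along the gene, and capitals mark the motifs.
Ndufs3: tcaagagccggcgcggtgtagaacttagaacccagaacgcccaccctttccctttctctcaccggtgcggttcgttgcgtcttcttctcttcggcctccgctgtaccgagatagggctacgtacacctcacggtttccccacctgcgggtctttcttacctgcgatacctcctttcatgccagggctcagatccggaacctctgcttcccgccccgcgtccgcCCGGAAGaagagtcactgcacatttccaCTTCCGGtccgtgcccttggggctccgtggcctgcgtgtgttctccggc
Ndufs7: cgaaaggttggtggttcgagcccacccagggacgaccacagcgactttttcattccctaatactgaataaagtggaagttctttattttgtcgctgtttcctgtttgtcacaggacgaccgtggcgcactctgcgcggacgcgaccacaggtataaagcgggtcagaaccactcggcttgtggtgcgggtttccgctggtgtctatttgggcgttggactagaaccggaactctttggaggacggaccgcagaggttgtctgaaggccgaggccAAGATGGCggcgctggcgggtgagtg
Sdhd: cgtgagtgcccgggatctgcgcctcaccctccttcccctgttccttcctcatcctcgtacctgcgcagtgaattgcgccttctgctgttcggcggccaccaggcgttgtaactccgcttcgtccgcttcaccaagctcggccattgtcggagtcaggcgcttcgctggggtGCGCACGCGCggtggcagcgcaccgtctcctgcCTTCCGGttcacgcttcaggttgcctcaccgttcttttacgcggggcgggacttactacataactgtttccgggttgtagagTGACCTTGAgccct
Uqcrc1: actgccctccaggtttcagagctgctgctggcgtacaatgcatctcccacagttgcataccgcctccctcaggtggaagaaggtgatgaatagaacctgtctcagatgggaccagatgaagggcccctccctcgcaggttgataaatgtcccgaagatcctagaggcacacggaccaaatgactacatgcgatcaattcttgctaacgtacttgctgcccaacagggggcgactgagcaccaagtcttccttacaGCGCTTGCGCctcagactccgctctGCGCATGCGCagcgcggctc

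The 4 genes shown changed by −0.50 to −0.59 for C24 minus C12. Of the genes with the YY1 motif, Ndufa3, Ndufs4 and Ndufs6 did not pass in that comparison, while Ndufa9, Ndufb8, Ndufc1 and Ndufs7 did. Cox6a1, which did not pass either, had the NRF1 and the ETS motif. The other genes with the NRF1 motif passed except Ndufs6, and the other genes with the ETS motif all passed.

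Other respiratory chain genes, from lists drawn up by function, were measured beside the 49, and their counts are to be read against all genes tested. For C24 minus C12, 22.2% of all genes tested were lower and 23.9% higher. For HF12 minus C12, 17.4% were lower and 13.6% higher. Further subunits were lower in C24 than in C12 for 10 of 10 genes (median −0.40) and in HF12 than in C12 for 5 of 10 (median −0.27). Ndufa4, now counted as a subunit of complex IV, changed by −0.76 ± 0.09 and −0.58 ± 0.09 in these comparisons (limma adjusted p = 0.000947 and 0.00442), and Uqcr11, a small subunit of complex III, by −0.85 ± 0.07 and −0.53 ± 0.07 (adjusted p = 0.000283 and 0.00269). Of 17 genes on the ATP synthase list, 13 were lower and 0 higher for C24 minus C12 (median −0.32) and 11 lower and 1 higher for HF12 minus C12 (median −0.22). The higher gene was Atpif1 (0.29 ± 0.05, limma adjusted p = 0.0103), which encodes an inhibitor of the synthase and not a subunit. Of 43 assembly factor genes, 23 were lower and 3 higher for C24 minus C12 (median −0.21) and 11 lower and 1 higher for HF12 minus C12 (median −0.17).

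Most genes around the chain that passed were lower too. The list of mobile carriers and coenzyme Q synthesis had 12 of 16 genes lower and 2 higher for C24 minus C12 (median −0.42), and 11 lower and 0 higher for HF12 minus C12 (−0.31). Cycs, which encodes cytochrome c, had levels of 5.75 and 5.76 in HF24, 5.51 and 5.48 in C24, 5.30 and 5.41 in HF12 and 5.83 and 5.76 in C12. HF24 and C12 were close and C24 and HF12 lower, with a change of −0.30 ± 0.06 for C24 minus C12 and 0.26 ± 0.06 for HF24 minus C24 (limma adjusted p = 0.0111 and 0.0247). Citric acid cycle enzymes were lower for 10 of 13 genes and higher for 0 both for C24 minus C12 (median −0.40) and for HF12 minus C12 (−0.35). Fatty acid oxidation enzymes had a lower median, with 13 of 15 lower and 0 higher for C24 minus C12 (median −0.94) and 12 lower and 1 higher for HF12 minus C12 (−0.73). Eci1, which prepares unsaturated fatty acids for oxidation, changed by −1.24 ± 0.06 for C24 minus C12 and −1.09 ± 0.06 for HF12 minus C12 (adjusted p = 3.53e-05 and 5.99e-05). For HF24 minus C24, 15.1% of all genes tested were higher and 19% lower. Of the 10 further subunits 1 was higher, and of 13 citric acid cycle enzymes 2 were. Of 17 genes on the ATP synthase list 3 were higher, the inhibitor gene Atpif1 among them. Each of these lists had 0 lower, and the shares of higher genes were near or below that of all genes. Of 43 assembly factors 11 were higher and 0 lower, of 16 carrier and coenzyme Q genes 7 were higher and 1 lower, and of 15 fatty acid oxidation enzymes 1 was higher and 1 lower.

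**Figure D4:**
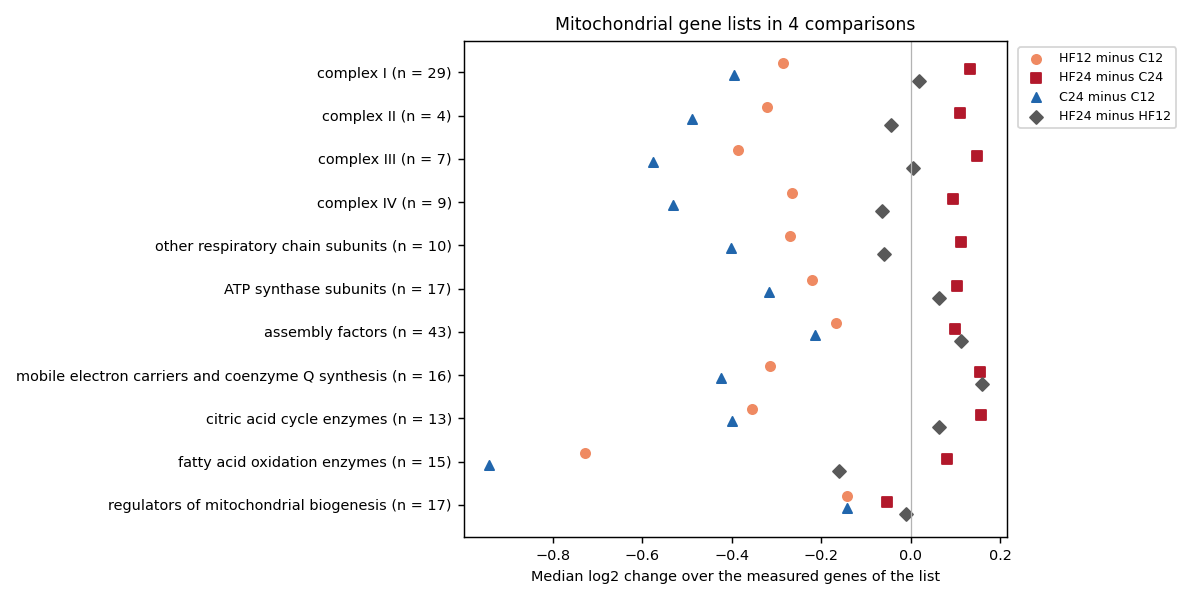
Median log2 change over the measured genes of 11 mitochondrial gene lists in 4 comparisons, with the number of genes in brackets. Medians for C24 minus C12 and HF12 minus C12 lie below 0 in all 11 lists, and the fatty acid oxidation list is the farthest at −0.94 and −0.73.

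Isoforms that replace common subunits in particular tissues did not move as 1 group. Of 8 genes 4 were lower and 2 higher for C24 minus C12, against 22.2% and 23.9% of all genes tested. For HF12 minus C12, 3 were lower and 1 higher, against 17.4% and 13.6%. The shares of higher isoforms were near those of all genes. Cox8b, a form of subunit 8 of muscle and brown fat in rodents, had levels of −2.37 and −2.45 in HF24, −0.09 and −0.18 in C24, 0.91 and 1.07 in HF12 and 2.51 and 2.38 in C12. The groups were far apart, with HF24 lowest. The change was −2.58 ± 0.08 for C24 minus C12, −1.46 ± 0.08 for HF12 minus C12 and −2.27 ± 0.08 for HF24 minus C24 (limma adjusted p = 1.16e-05, 8.67e-05 and 6.82e-05). Cox7a1, a form of muscle and brown fat, changed by −0.66 ± 0.07 for C24 minus C12 and −0.54 ± 0.07 for HF12 minus C12 (adjusted p = 0.000878 and 0.00283).

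Ndufa4l2, a hypoxia-induced relative of Ndufa4, ran the other way. Its levels were 4.06 and 4.06 in HF24, 3.69 and 3.67 in C24, 2.17 and 2.12 in HF12 and 0.86 and 0.93 in C12. HF24 was highest and C12 lowest, with a change of 2.78 ± 0.06 for C24 minus C12, 1.24 ± 0.06 for HF12 minus C12 and 0.38 ± 0.06 for HF24 minus C24 (limma adjusted p = 2.99e-06, 2.98e-05 and 0.00396). Cox4i2, the alternative form of subunit 4, was higher in C24 than in C12 (0.43 ± 0.07, adjusted p = 0.00387) and did not pass for HF12 minus C12 (0.13 ± 0.07, adjusted p = 0.218).

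Of 17 regulators of mitochondrial biogenesis, 8 were lower and 3 higher for C24 minus C12, against 22.2% and 23.9% of all genes tested. The higher genes were Pprc1 (0.40 ± 0.06, limma adjusted p = 0.00231), Twnk (0.36 ± 0.06, adjusted p = 0.00522) and Gabpb1 (0.28 ± 0.07, adjusted p = 0.0223). For HF12 minus C12, 5 were lower and 0 higher, against 17.4% and 13.6%. Ppargc1a, the gene for PGC-1 alpha, had levels of −5.41 and −4.95 in HF24, −3.92 and −4.35 in C24, −1.56 and −1.80 in HF12 and 0.67 and 0.49 in C12. C12 was highest and the HF24 arrays were not well above background. Ppargc1a changed by −4.71 ± 0.21 for C24 minus C12 and −2.26 ± 0.21 for HF12 minus C12 (limma adjusted p = 2.9e-05 and 0.000631), and was at least 1.63-fold lower in HF24 than in C24 (adjusted p = 0.012). Its relative Ppargc1b changed by −1.80 ± 0.09 and −1.01 ± 0.09 (adjusted p = 4.11e-05 and 0.000501), and Ppara, a nuclear receptor for fatty acid oxidation genes, by −2.54 ± 0.09 and −1.71 ± 0.09 (adjusted p = 1.43e-05 and 5.28e-05).

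Esrra, the gene for ERR alpha, was lower in C24 than in C12 (−0.36 ± 0.06, limma adjusted p = 0.00416) and did not pass for HF12 minus C12 (−0.14 ± 0.06, adjusted p = 0.126). Nrf1 changed by 0.17 ± 0.10 for C24 minus C12 (adjusted p = 0.198), Gabpa, which encodes the DNA-binding GABP subunit, by 0.02 ± 0.09 (adjusted p = 0.862), and Tfam, the mitochondrial transcription factor, by 0.00 ± 0.08 (adjusted p = 0.976). Ucp2, an inner membrane carrier of the uncoupling protein family, had levels of 0.03 and −0.05 in HF24, −1.39 and −1.23 in C24, 1.40 and 1.23 in HF12 and −1.67 and −1.18 in C12. The high-fat groups lay above chow at both times, by 1.30 ± 0.17 for HF24 minus C24 (adjusted p = 0.00244) and 2.74 ± 0.17 for HF12 minus C12 (adjusted p = 0.00011). The probe of Ucp3, the neighbouring gene of the same family, had nearly the same levels, 0.04 and −0.0012 in HF24, −1.44 and −1.28 in C24, 1.39 and 1.25 in HF12 and −1.60 and −1.31 in C12, so the values of Ucp2 and Ucp3 cannot be told apart. Ucp1 was not well above background on any array.

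Markers of mature adipocytes, like the subunit genes, had their highest level in C12. The 12 mature adipocyte markers summed to 56.2 and 58.4 in HF24, 51.6 and 52.6 in C24, 136 and 142 in HF12 and 880 and 886 in C12, in units of the array's 75th percentile. At 24 weeks Fabp4 made up most of the sum, with mean log2 levels of 5.67 in HF24 and 5.52 in C24. The C12 arrays were far above the rest. For the subunit genes C12 was highest by much less. Complex I genes, for instance, summed to 1156 and 1159 in HF24, 1084 and 1049 in C24, 1130 and 1213 in HF12 and 1410 and 1387 in C12. Of the adipocyte markers 6 of 12 were well above background in HF24, 9 in C24, 11 in HF12 and 12 in C12. Of these markers 11 of 12 were lower for C24 minus C12 (median −5.69) and 11 of 12 for HF12 minus C12 (median −3.15), against 22.2% and 17.4% of all genes tested. Among them was Adipoq, the adiponectin gene, which changed by −9.18 ± 0.08 and −3.33 ± 0.08 (limma adjusted p = 1.97e-07 and 2.56e-06). In HF24 Adipoq was not well above background. For HF24 minus C24 the markers had a median of −0.08, with 6 lower and 2 higher, against 19% and 15.1% of all genes tested. For HF24 minus HF12 the markers and the subunit genes differed. Of 12 markers 10 were lower and 1 higher (median −2.65), against 24.4% and 22.5% of all genes tested, where the subunit genes had a median of 0.01.

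Macrophage markers ran differently from the subunit genes. All 15 summed to 321 and 315 in HF24, 162 and 169 in C24, 431 and 425 in HF12 and 74.7 and 76.3 in C12, with 13 to 15 of them well above background on every array. C12 was lowest and HF12 highest. Skeletal muscle markers (10 genes, 9 to 10 well above background) summed to 33.7 and 33.2 in HF24, 108 and 108 in C24, 221 and 228 in HF12 and 270 and 278 in C12, and cell cycle genes (12 of 12 well above background) to 140 and 138 in HF24, 77.7 and 82.8 in C24, 112 and 113 in HF12 and 86.9 and 88.2 in C12. The summed muscle markers were highest in C12 too, while the cell cycle genes were highest in HF24. For HF12 minus C12, 2 of 10 muscle markers were lower (median −0.12), a share near the 17.4% of all genes tested. For HF24 minus HF12, 10 of 10 muscle markers were lower (median −3.06), against 24.4% of all genes tested. For C24 minus C12, 23.9% of all genes tested were higher and 22.2% lower. In that comparison endothelial markers had a median of 0.91 (7 of 8 higher, 1 lower), epithelial markers 2.11 (5 of 6 higher, 1 lower) and Schwann cell markers 0.58 (5 of 6 higher, 1 lower). The part of these cells in the changes of the subunit genes was not tested.

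**Figure D5:**
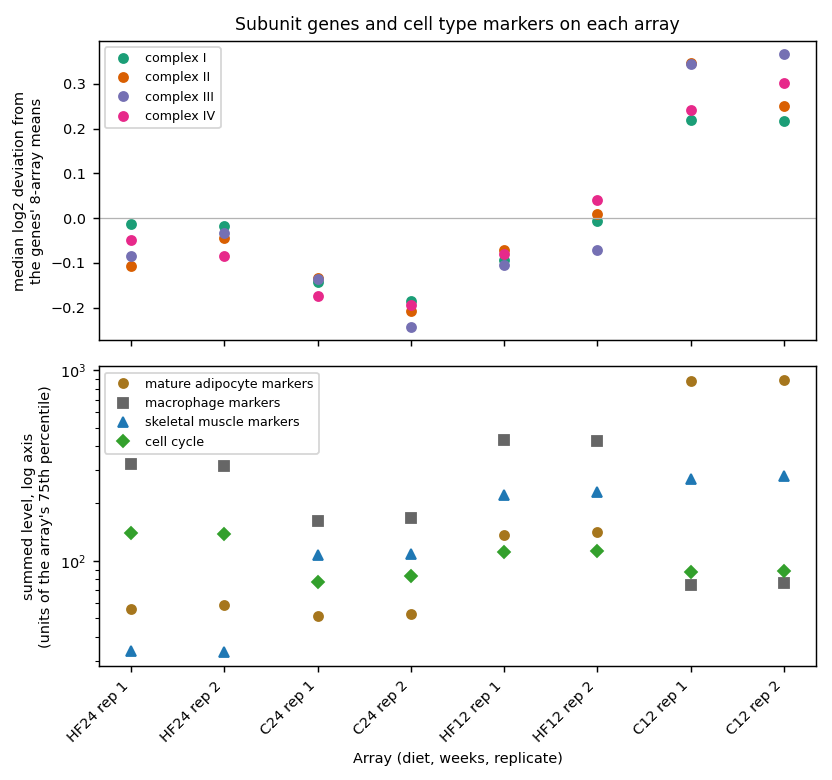
The upper panel gives, for each array, the median over a complex of the genes' log2 deviations from their own 8-array means, and the lower panel the summed level of 4 marker lists on a log axis. The C12 arrays are highest in all 4 complexes and in the mature adipocyte markers (880 and 886), and lowest in the macrophage markers (74.7 and 76.3).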

How the data were processed

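Per the file headers (Agilent Feature Extraction 11.0.1.1, build mm9), the deposited processed intensity is spot brightness after background subtraction, with arrays not scaled to each other. The authors also deposited a table of log2 values, which equal log2 of that intensity plus 1 constant per array of unstated rule; column medians run from −1.44 to −1.33 and genes are not centred. It served as an alternative.

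Control spots and outlier-flagged spots were left out, spots of a probe averaged as log2, and the array's 75th percentile subtracted. Probes well above background on both arrays of at least 1 group were kept (37650). Accessions gave 1 symbol for 32907 of 56413 probes, through RefSeq names of GRCm38.p6. limma 3.58.1 in R 4.3.3 fitted a mean per group to all 8 arrays (4 residual and 1.90 prior degrees of freedom), with two-sided tests and Benjamini-Hochberg adjustment over all genes within a comparison at 0.05. A fold written as at least is a bound for a gene too dim in 1 group: it uses the dimmest intensity that passed the background flag on each array, or the gene's value if larger. Python 3.11.15, pandas 2.3.3 and matplotlib 3.10.9 handled tables and figures. The test was also tested on simulated data for HF12 minus C12. It recovered 0% of simulated log2 changes of 0.2, 30% of 0.5, 70% of 1 and 88% of 2, and called 0.02% of unchanged genes. Only 50 of the 29585 genes were changed at each size, while 9166 were called in the real comparison. The adjustment is stricter where fewer genes change, so these rates need not hold for the real data. Small changes can still be missed.

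The subunit genes and the lists were chosen with earlier results of these data known. Any subunit gene could be named, as could up to 4 called genes of each other list by smallest p and every measured isoform, biogenesis regulator and uncoupling protein. Apart from that, 1 gene within the rule is not reported here. Alternatives were quantile normalization, normexp (offset 50, on the deposited median intensity) with quantile normalization, the authors' table, other filters on dim probes, every kept probe, a fit on the compared groups alone, a block for replicate number, and a fit without each array in turn. Calls of single genes were followed through all of these but the fit on every kept probe. Same-numbered arrays correlated at −0.08 to 0.17 in their deviations, so no clear pairing by number was seen. Low correlation cannot exclude pairing.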

Additional observations from a re-analysis of the deposited data

Results flagged for a closer look

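The diet effect at 24 weeks (HF24 minus C24) differed from the diet effect at 12 weeks (HF12 minus C12) for 39 of the 49 subunit genes, by a test of the difference itself, an interaction term in limma with an adjusted p under 0.05. This term uses the C12 arrays too, so these flags are not independent of the lower levels in C24 than in C12. The values that follow are the 24-week minus the 12-week effect on the log2 scale, and every one of the 39 lies above 0.

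In complex I the genes were Ndufa5 (0.55), Ndufa6 (0.32), Ndufa9 (0.58), Ndufa10 (0.39), Ndufa12 (0.48), Ndufb2 (0.35), Ndufb3 (0.69), Ndufb5 (0.40), Ndufb6 (0.56), Ndufb7 (0.33), Ndufb9 (0.64), Ndufb10 (0.54), Ndufc1 (0.38), Ndufc2 (0.55), Ndufs1 (0.33), Ndufs3 (0.51), Ndufs4 (0.34), Ndufs6 (0.35), Ndufs7 (0.57), Ndufs8 (0.37), Ndufv1 (0.54) and Ndufv2 (0.48). In complex II they were Sdha (0.55), Sdhb (0.46) and Sdhd (0.50), and in complex III Uqcrc1 (0.57), Uqcrc2 (0.49), Uqcrfs1 (0.82), Uqcrb (0.42), Uqcrq (0.50), Uqcrh (0.39) and Cyc1 (0.76). In complex IV they were Cox5a (0.49), Cox6b1 (0.46), Cox6c (0.47), Cox7a2 (0.42), Cox7b (0.48), Cox7c (0.54) and Cox8a (0.40).

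The same test passed for other genes that were named by function. Further subunits and isoforms with a difference were Ndufa4 (0.52), Ndufab1 (0.81), Uqcr11 (0.68), Cox6a2 (0.57), Cox7a1 (0.52), Cox8b (−0.81) and Ndufa4l2 (−0.87). For ATP synthase, assembly and electron carriers they were Atp5g3 (0.64), Atp5k (0.62), Acad9 (0.55), Uqcc3 (0.47), Cycs (0.70), Coq6 (0.97) and Coq8a (0.40). Citric acid cycle and fatty acid oxidation enzymes were Fh1 (0.83), Idh3a (0.82), Cpt2 (0.88) and Eci1 (1.28). Regulators were Ppargc1b (0.77), Ppara (1.50), Nrip1 (0.67), Esrra (0.31), Polrmt (0.29) and Twnk (−0.37). Carriers were Ucp2 (−1.45), Slc25a5 (0.69) and Ucp3 (−1.40), where the probes of Ucp2 and Ucp3 had nearly the same levels. Of all these genes, Cox8b, Ndufa4l2, Twnk, Ucp2 and Ucp3 lay below 0. For Ppargc1a no difference is given, since it was not well above background in HF24.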

How the results depend on the processing

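The comparison of C24 with C12 kept a count within 1.5 times of its 44 genes under every alternative tried, with 38 to 44 when an array was left out and 49 under either quantile scaling. For HF12 minus C12 the 34 lower genes became 22 with only the groups compared and 10 to 28 without an array. For HF24 minus C24 the 8 calls became 2 with no filter on dim probes, 3 with only the groups compared, 4 under quantile normalization, 4 under normexp with quantile normalization and 0 to 6 without an array. For HF24 minus HF12 the 3 calls became 18 under quantile normalization, 17 under normexp with quantile normalization and 0 to 3 without an array. The interaction gave 21 in place of 39 with no filter, and 19 to 34 without an array. The cause was not tested. Where leaving out an array left 1 in a group, that array was assumed to vary like the other groups. Single genes were not followed through the fit on every kept probe. For single subunit genes over all comparisons and alternatives, 3078 values kept their side of the threshold and direction, 372 lost the call, 73 gained one and 103 uncalled values changed sign. No direction was reversed among the called members, and the median over the members kept its sign except for HF24 minus HF12, which ran from −0.04 to 0.05 without an array. Dropping the filter moved the median of all genes, for instance to 0.15 for C24 minus C12.

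The replicate numbers do not pair the arrays: deviations of arrays with the same number correlated at −0.08 to 0.17. With the number as a replicate block the counts were 28 for HF12 minus C12, 4 for HF24 minus C24, 44 for C24 minus C12, 2 for HF24 minus HF12 and 31 for the interaction.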
